A study of Sus scrofa with 9 samples.

Results

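The CCDC genes are a set grouped by name and not by descent: each symbol stands for a protein with a predicted coiled-coil domain, a rod of helices wound around each other. Coiled coils hold protein assemblies together and set their spacing, and the testis uses many of them in the sperm tail's microtubule core (the axoneme), in the centrioles from which it grows, in the manchette that shapes the sperm head and in the acrosome, the vesicle over the head. Other CCDC proteins work in the nucleus, in membrane traffic, in cell signalling or outside the cell. Every gene of the deposited count table whose symbol was CCDC followed by a number was taken, which gave 100 genes of the 22342 in the table. A symbol was known for 14749 of the genes, so a CCDC gene without one is not analysed here. Of the 100 genes, 99 passed the filter on low counts, as did 16802 of all genes, and CCDC177, with at most 17 estimated counts in any library, did not.

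The study measured RNA in germ cells of the pig (Sus scrofa) testis at 3 successive stages: spermatogonia, which divide by mitosis and feed the process, spermatocytes, which pass through meiosis, and round spermatids, its haploid products before they take on the shape of sperm. Each stage had 3 libraries: spermatogonia 1, 2 and 3, spermatocytes 2, 3 and 4, and round spermatids 1, 2 and 3. The labels give tissue and cell type but no breed, age, treatment or animal. The p-values below thus reflect how far libraries of the same stage differ, pooled over the 3 stages, and part of that may be technical. The count columns for spermatogonia carry the name of the KIT receptor and those for spermatocytes that of meiotic pachytene. The labels do not state this match, which was made from what the names mean and from the numbers they share.

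Library totals ran from 47963279 to 64639201 estimated counts, the lowest in round spermatids 2. Marker genes were summed per library as CPM (counts scaled to library size), and the range over the 3 libraries of a stage is given. Spermatocyte markers (7 genes) summed to 2208 to 2712 CPM in spermatocytes, 453 to 473 CPM in spermatogonia and 202 to 275 CPM in round spermatids. SYCP2 and MEIOC made up most of the sum in spermatocytes (means of 983 and 849.7 CPM). SPO11 and DMC1 of this list went the other way, from 6.97 and 39.1 CPM in spermatogonia to 2.62 and 25.7 CPM in spermatocytes, both called lower. Spermatid markers (7 genes) summed to 4798 to 7131 CPM in round spermatids, nearly all of it from the protamines PRM1 and PRM2 and the transition proteins TNP1 and TNP2, to 1832 to 1874 CPM in spermatogonia and to 474 to 1518 CPM in spermatocytes, with the lowest sum in spermatocytes 3. The acrosome genes ACRV1, SPACA1 and SPACA4 of the same list were called lower in round spermatids than in spermatogonia (52.7 against 119, 40.8 against 81.8 and 8.73 against 101 CPM). Spermatogonial markers (6 of 7 genes found) summed to 93.0 to 96.9 CPM in spermatogonia, 34.7 to 45.9 CPM in spermatocytes and 78.2 to 83.9 CPM in round spermatids, with DMRT1 the largest part. KIT, whose name the spermatogonia columns carry, averaged 6.36 CPM in spermatogonia, 7.47 CPM in spermatocytes and 24.6 CPM in round spermatids, 3.87-fold above spermatogonia, against the label. GFRA1 was also highest in round spermatids (0.860, 0.326 and 5.35 CPM), and UCHL1 in spermatogonia (26.1, 1.72 and 1.90 CPM). Markers of myoid cells, the smooth-muscle-like cells around the tubules (6 genes), summed to 4546 to 5528 CPM in the libraries labelled round spermatids, against 20.2 to 21.9 CPM in spermatogonia and 8.10 to 20.1 CPM in spermatocytes. The endothelial markers (4 of 5 found) stood at 166 to 190 CPM in round spermatids, at 9.19 to 10.7 CPM in spermatogonia and at 4.58 to 16.8 CPM in spermatocytes. Leukocyte markers (5 genes) stood at 21.8 to 26.7 CPM in round spermatids, at 1.14 to 1.51 CPM in spermatogonia and at 0.786 to 2.05 CPM in spermatocytes. Sertoli cell markers (7 genes) stood at 228 to 314 CPM in round spermatids, at 66.8 to 70.9 CPM in spermatogonia and at 31.0 to 48.6 CPM in spermatocytes, where AMH was at 0 in every library. Leydig cell markers (5 of 6 found) were highest in spermatogonia, at 295 to 313 CPM, against 1.79 to 2.78 CPM in spermatocytes and 15.8 to 20.0 CPM in round spermatids. The part of these other cells in the results below was not tested. In such bulk samples fewer cells of a type and less RNA per cell cannot be told apart.

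As a group the CCDC genes were highest in spermatocytes. Their levels in TPM, which are scaled to gene length as well as library size, summed to 6873 ± 89.5 TPM in spermatogonia, 14955 ± 805 TPM in spermatocytes and 4546 ± 92.9 TPM in round spermatids (SD, n = 3 libraries each). The 3 stages did not overlap in this sum. A few genes carried much of it: the 5 most abundant members held 39.8% of the sum in spermatogonia, 53.1% in spermatocytes and 32.5% in round spermatids. The number of members with a mean of at least 10 TPM was 61 in spermatogonia, 62 in spermatocytes and 55 in round spermatids, and the median member stood at 20.5, 17.0 and 12.8 TPM. The sum was thus highest in spermatocytes while the median member was not.

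Stages were compared gene by gene with edgeR's quasi-likelihood test, fitted to all 16802 genes and all 9 libraries together, and a gene was called where its Benjamini-Hochberg adjusted p was below 0.05. The fit gives each gene 1 spread for all 3 stages, so the spermatogonia libraries enter the p-values of every comparison. They lay closest together, with a median coefficient of variation of 3.36% over the members, against 13.7% in spermatocytes and 16.3% in round spermatids. From spermatogonia to spermatocytes 48 of the 99 CCDC genes rose, 35 fell and 16 did not pass the test. The members' 48.5% that rose compares with 29.3% of all genes tested, and their 35.4% that fell with 44.0% of all genes. The median log2 difference was 0.39 for the CCDC genes and -0.32 for all genes. The size of the split depended on the scaling. Without normalization factors, 40 members were called higher and 44 lower (20.1% and 54.8% of all genes). The medians moved to -0.04 for members and -0.74 for all genes. On log2(TPM + 1) values tested with limma, 31 were higher and 40 lower (15.5% and 50.6% of all genes), and with a pseudocount of 0.1 the split was 31 and 41 (15.7% and 53.7% of all genes). In each of these settings the members' median stayed above that of all genes, by 0.71 as reported, by 0.71 without normalization factors, and by 0.38 and 0.60 on the TPM scale. The libraries of both stages did not overlap for 83 members, where 79.9% of all genes tested had none.

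From spermatocytes to round spermatids the split was the other way. The test called 33 members higher (33.3%, against 42.7% of all genes tested) and 49 lower (49.5%, against 36.4%), and 17 did not pass. The median log2 difference was -0.37 for the CCDC genes and 0.19 for all genes. Without normalization factors the split was 42 higher and 40 lower (51.0% and 26.7% of all genes). The median was then 0.06 for members and 0.64 for all genes. This comparison shares the spermatocyte libraries with the one before, so the pair are not independent. Here 77 members had no overlap of libraries, beside 78.2% of all genes.

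Between the first and the last stage the CCDC genes did not lean one way. In round spermatids against spermatogonia 31 members were called higher (31.3%, against 39.5% of all genes) and 33 lower (33.3%, against 39.7%), and 35 did not pass. The medians were -0.01 for members and 0.00 for all genes. On log2(TPM + 1) or log2(TPM + 0.1) values, 20 members were higher and 52 lower in each (26.8% and 50.05% of all genes in the first, 26.4% and 49.7% in the second), with medians of -0.54 and -0.62 for members and -0.39 and -0.58 for all genes. Without round spermatids 2, 40 of the 100 members then tested were higher and 32 lower, near the shares of all genes (41.2% and 39.99%). In 69 members the libraries of these stages did not overlap, beside 85.2% of all genes tested.

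A gene was placed in a stage when it was called higher there than in each of the other stages, which uses that stage's libraries in both comparisons. By this rule 37 members were highest in spermatocytes (37.4%, against 19.5% of all genes), 16 in spermatogonia (16.2%, against 21.5%) and 17 in round spermatids (17.2%, against 30.1%), and 29 were highest in no single stage. With limma on TPM, 28 members were highest in spermatogonia, a count for which the share of all genes was not taken. On log2(TPM + 1), 50.6% of all genes were called lower in spermatocytes than in spermatogonia, and 50.05% lower in round spermatids than in spermatogonia. Called lowest were 19 in spermatogonia (13.2% of all genes), 22 in spermatocytes (26.2% of all genes) and 24 in round spermatids (26.0% of all genes). RefSeq positions on the pig assembly Sscrofa11.1 were found for 94 members on 18 chromosomes, and 36 of them overlap another gene's span. Whether strand was used in counting is not given, so reads of such pairs cannot be assigned with certainty. Among the 57 tested members with a position and no overlapping gene, 27 rose and 18 fell in spermatocytes against spermatogonia (29.3% and 44.0% of all genes tested), and 19 rose and 27 fell in round spermatids against spermatocytes (42.7% and 36.4%).

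**Figure D1:**
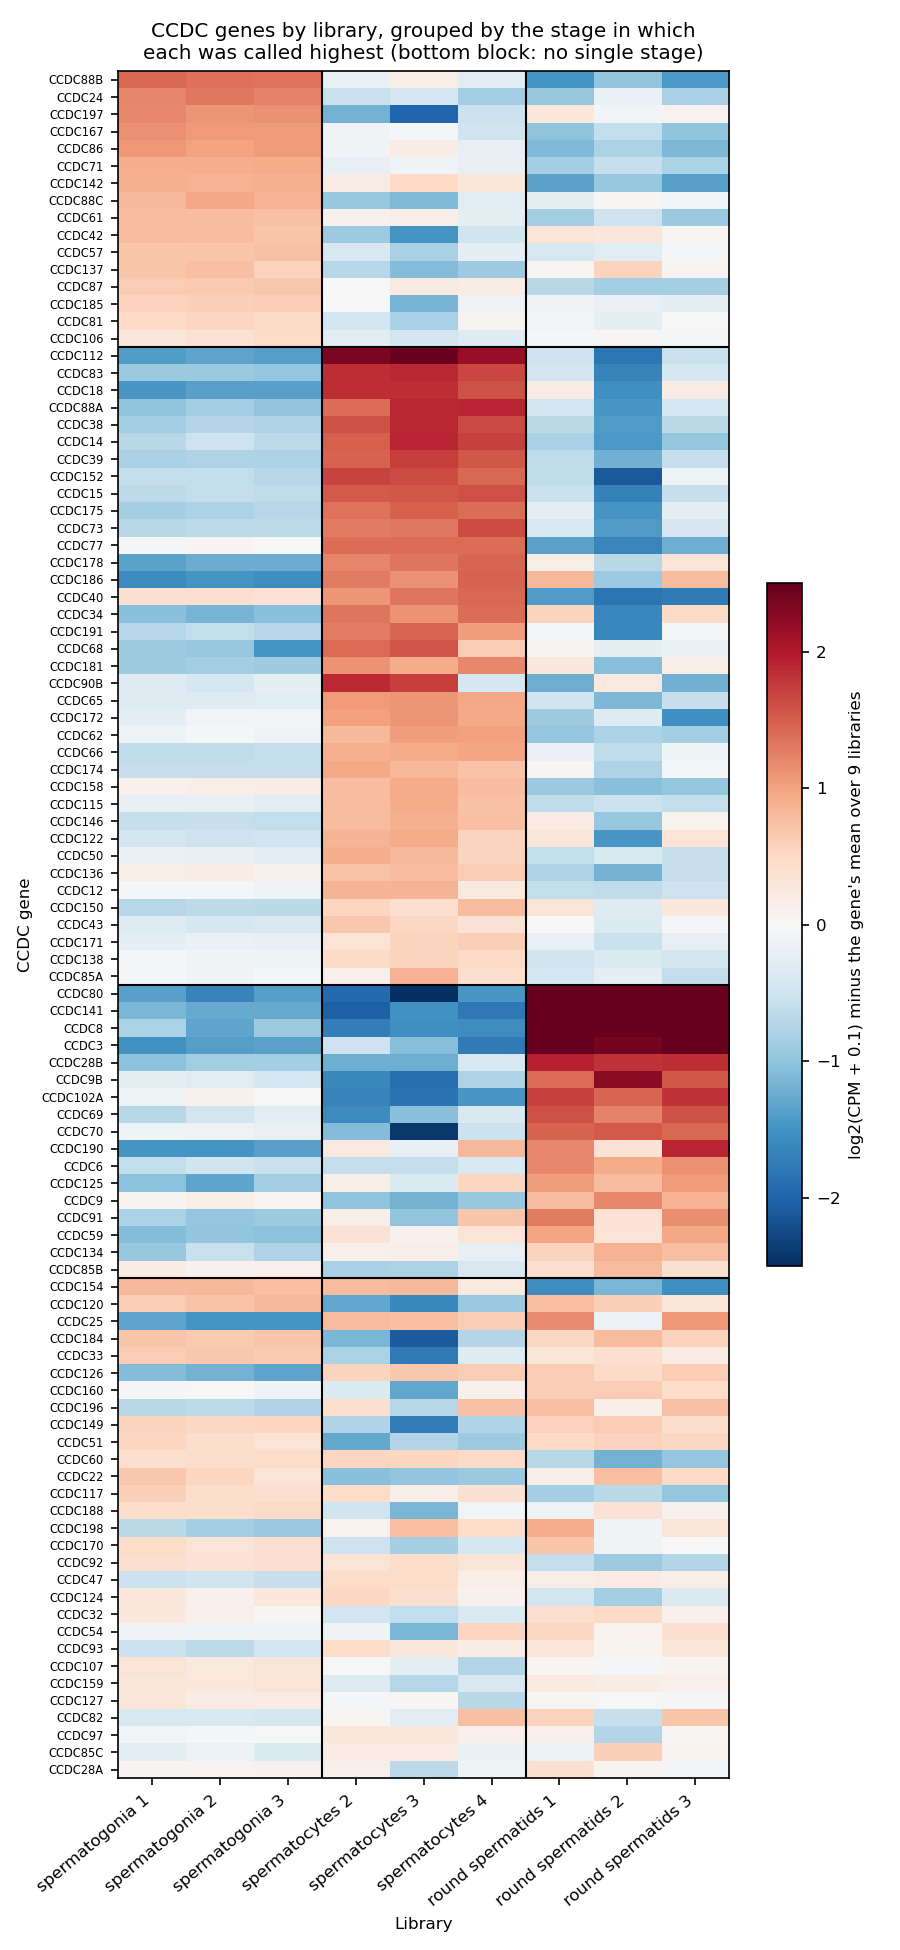
Levels of the 99 tested CCDC genes (rows) in the 9 libraries (columns), as log2(CPM + 0.1) minus the gene's mean, with colours ending at 2.5 on either side; rows are grouped by the stage in which the gene was called highest. The block of 37 genes highest in spermatocytes is the largest, followed by 29 genes in no single stage, 17 highest in round spermatids and 16 highest in spermatogonia.

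**Figure D2:**
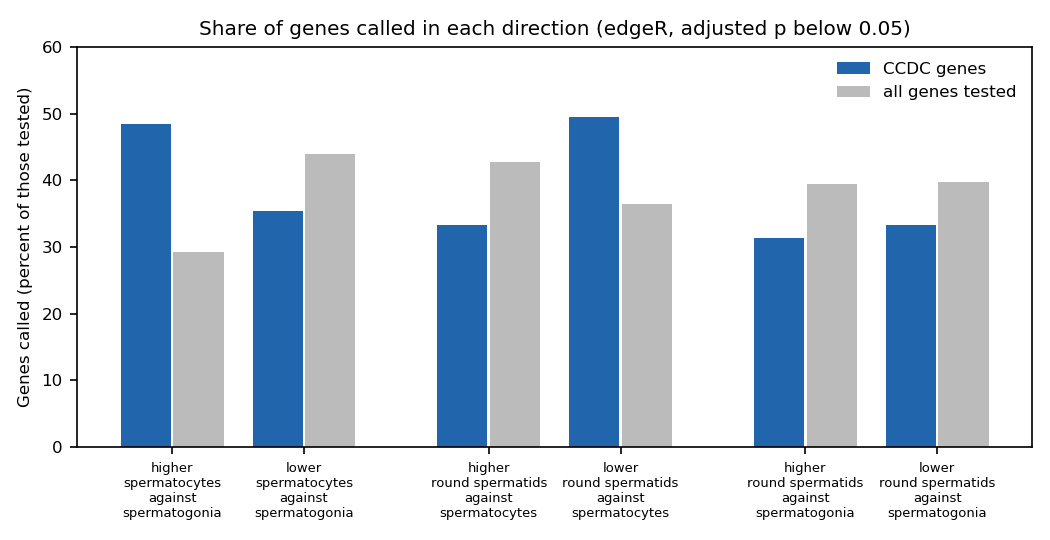
Percent of genes called higher or lower by edgeR in each of the 3 comparisons, for the 99 CCDC genes tested (blue) and all 16802 genes tested (grey). The CCDC bars exceed the grey ones for genes higher in spermatocytes than in spermatogonia (48.5 against 29.3%) and lower in round spermatids than in spermatocytes (49.5 against 36.4%).

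All 4 members assigned here to the axoneme group were called higher in spermatocytes than in both other stages, as were 19.5% of all genes. CCDC34 and CCDC38, also linked to the flagellum, were placed with the sperm head and manchette. CCDC39 and CCDC40 form the molecular ruler that sets the repeat along the axoneme's microtubule doublets. CCDC39 (ENSSSCG00000011768, chromosome 13, 118623787 to 118773205 in Sscrofa11.1, where its span overlaps TTC14) stood at 40.1, 41.1 and 40.7 CPM in spermatogonia, at 197, 233 and 208 CPM in spermatocytes and at 45.5, 30.6 and 47.1 CPM in round spermatids. Values are given in the order of the library numbers throughout. The spermatocyte libraries lay above all others, and those of the other stages overlapped. CCDC39 was 5.23-fold higher in spermatocytes than in spermatogonia (log2 2.39 ± 0.16, where ± is the standard error of the log2 difference; adjusted p = 1.34e-06) and 5.17-fold lower in round spermatids than in spermatocytes (log2 -2.37 ± 0.16; adjusted p = 2.7e-07). Between round spermatids and spermatogonia its log2 difference was 0.02 ± 0.16 (adjusted p = 0.932), but -0.61 on log2(TPM + 1) values, where it was called lower. CCDC40 (ENSSSCG00000017158, chromosome 12, 2341953 to 2384066) stood at 111, 113 and 111 CPM, then at 185, 218 and 233 CPM, and at 32.1, 24.0 and 25.1 CPM in round spermatids, with no overlap between stages. Its rise in spermatocytes was smaller than that of its partner, at 1.89-fold (log2 0.92 ± 0.13, adjusted p = 0.000128), and did not pass on TPM (log2 0.39 with either pseudocount, adjusted p = 0.0922 and 0.106). Its fall in round spermatids against spermatocytes was 7.82-fold (log2 -2.97 ± 0.14, adjusted p = 2.58e-08), and against spermatogonia 4.13-fold (log2 -2.05 ± 0.14, adjusted p = 3.43e-07). As reported, both genes thus rose in spermatocytes and fell in round spermatids, and CCDC40 alone was then called below its spermatogonial level. On log2(TPM + 1) values CCDC39 was called below that level as well. The difference between the genes was not tested.

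CCDC65 belongs to the nexin-dynein regulatory complex, the link between doublets that regulates bending. It (ENSSSCG00000000179, chromosome 5, 14949864 to 14958967) stood at 206, 206 and 209 CPM in spermatogonia, 544, 557 and 506 CPM in spermatocytes and 184, 119 and 172 CPM in round spermatids. All stages were apart, with round spermatids lowest. The gene rose 2.59-fold in spermatocytes (log2 1.37 ± 0.15, adjusted p = 2.03e-05) and was 3.38-fold lower in round spermatids than in spermatocytes (log2 -1.76 ± 0.15, adjusted p = 1.61e-06). Against spermatogonia its fall in round spermatids (log2 -0.39 ± 0.15, adjusted p = 0.0348) was lost when any spermatogonia library was left out (adjusted p = 0.071 to 0.0767). CCDC181, which binds microtubules, stood at 63.8, 65.5 and 63.7 CPM, at 256, 224 and 271 CPM, and at 141, 55.9 and 131 CPM. Round spermatids 2 was the low value and fell below the spermatogonia. CCDC181 rose 3.89-fold in spermatocytes (log2 1.96 ± 0.28, adjusted p = 0.000122) and was 2.29-fold lower in round spermatids than in spermatocytes (log2 -1.19 ± 0.28, adjusted p = 0.00228). Its call in round spermatids against spermatogonia (log2 0.77 ± 0.27, adjusted p = 0.0249) was lost without any one of spermatogonia 1, 2 or 3 or round spermatids 1 or 3 (log2 0.54 to 0.77, adjusted p = 0.0582 to 0.108).

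Other axoneme genes were read for comparison from a list of 47 symbols, of which 35 were found and tested. In spermatocytes against spermatogonia 13 of them rose and 14 fell (37.1% and 40%, near the 29.3% and 44.0% of all genes), with a median log2 difference of 0.16. In round spermatids 4 rose and 26 fell against spermatocytes (11.4% and 74.3%, against 42.7% and 36.4% of all genes; median -1.44), and 1 rose and 26 fell against spermatogonia (2.86% and 74.3%, against 39.5% and 39.7%; median -0.93). The most abundant of them, the dynein arm assembly factor DNAAF1, averaged 1920 ± 23.1 CPM in spermatogonia, 2229 ± 142 CPM in spermatocytes and 769 ± 69.1 CPM in round spermatids (SD, n = 3). ZMYND10, another assembly factor, fell at each step, from 804 ± 7.86 to 333 ± 39.7 and 126 ± 34.7 CPM. CFAP70 averaged 499.98 ± 3.70, 572 ± 71.8 and 140 ± 8.43 CPM. The tektin TEKT2, a protein inside the doublets, averaged 466 ± 8.23, 247 ± 15.7 and 142 ± 5.63 CPM. Of these 4, DNAAF1 and CFAP70 were not called between spermatogonia and spermatocytes (adjusted p = 0.0951 and 0.139), and all 4 fell from spermatocytes to round spermatids.

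A further list held 44 genes that once carried a CCDC symbol and were renamed when their role was found, many for the cilium or flagellum; 36 were found and tested. In spermatocytes 22 rose and 9 fell (61.1% and 25.0%, against 29.3% and 44.0% of all genes; median log2 difference 0.59), and in round spermatids against spermatocytes 3 rose and 27 fell (8.33% and 75.0%, against 42.7% and 36.4%; median -1.07). In round spermatids against spermatogonia 7 rose and 20 fell (19.4% and 55.6%, against 39.5% and 39.7%; median -0.51). CFAP210 had the highest mean CPM of the list in spermatocytes and in round spermatids but not in spermatogonia, where IHO1 and YJU2B led. It stood at 53.7, 55.0 and 56.2 CPM in spermatogonia, 623, 539 and 651 CPM in spermatocytes and 397, 105 and 373 CPM in round spermatids, with round spermatids 2 again the low value. YJU2B averaged 366 ± 5.94, 303 ± 30.7 and 176 ± 7.27 CPM, IHO1, which acts in meiotic recombination, 397 ± 10.7, 258 ± 56.3 and 77.6 ± 16.5 CPM, and CFAP36 192 ± 4.28, 425 ± 43.2 and 122 ± 26.7 CPM.

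Among the 11 members tied to the sperm head, the manchette or the attachment of the tail, 6 rose and 5 fell in spermatocytes (54.5% and 45.5%, against 29.3% and 44.0% of all genes). In round spermatids against spermatocytes 4 rose and 7 fell (36.4% and 63.6%, against 42.7% and 36.4%), so that every member of this group was called in both steps. CCDC38, a protein of manchette and flagellum, was among the most abundant members, at 268, 289 and 282 CPM in spermatogonia, 1450, 1786 and 1517 CPM in spermatocytes and 303, 180 and 301 CPM in round spermatids. Spermatocytes lay far above, and the other stages overlapped. It was 5.67-fold higher in spermatocytes than in spermatogonia (log2 2.504 ± 0.20, adjusted p = 2.47e-06) and 6.07-fold lower in round spermatids than in spermatocytes (log2 -2.60 ± 0.20, adjusted p = 5.4e-07). Its span on chromosome 5 (87569440 to 87615264) overlaps SNRPF, a splicing protein gene. By mean TPM it ranked 67 among all genes in spermatocytes, with 1596 ± 176 TPM.

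CCDC62 and CCDC136 are both needed for the acrosome to form in mice, and both were highest in spermatocytes and lowest in round spermatids. CCDC62 (chromosome 14, 30028561 to 30066638) stood at 471, 489 and 474 CPM, at 887, 1048 and 1026 CPM, and at 258, 293 and 276 CPM. No libraries of different stages overlapped. It rose 2.06-fold in spermatocytes (log2 1.05 ± 0.10, adjusted p = 1.1e-05; on TPM not called, adjusted p = 0.0621 and 0.0563), then was 3.58-fold lower in round spermatids (log2 -1.84 ± 0.11, adjusted p = 8.46e-08). CCDC136 (ENSSSCG00000016579, chromosome 18, 19793764 to 19824855) had the second highest TPM of all members in spermatogonia. Its libraries stood at 1121, 1142 and 1085 CPM in spermatogonia, 1651, 1722 and 1562 CPM in spermatocytes and 592, 446 and 675 CPM in round spermatids. The stages were apart on this scale. The 1.47-fold rise (log2 0.56 ± 0.14, adjusted p = 0.0051) was not called on TPM, where the log2 difference was 0.04 (adjusted p = 0.83 and 0.828), nor without normalization factors (log2 0.14, adjusted p = 0.245), nor with the spermatogonia libraries summed into 1 (log2 0.49, adjusted p = 0.142). The 2.88-fold fall in round spermatids (log2 -1.53 ± 0.15, adjusted p = 3.46e-06) kept its call under every alternative run.

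CCDC42 and CCDC87 showed other patterns. CCDC42, which acts where the tail joins the head, stood at 49.8, 48.6 and 46.0 CPM in spermatogonia, 15.2, 10.1 and 20.3 CPM in spermatocytes and 35.6, 34.6 and 29.6 CPM in round spermatids. Spermatocytes were lowest and the stages did not overlap. It fell 3.17-fold in spermatocytes (log2 -1.66 ± 0.21, adjusted p = 5.5e-05) and was 2.19-fold higher in round spermatids than in spermatocytes (log2 1.13 ± 0.21, adjusted p = 0.000539). Its difference between round spermatids and spermatogonia (log2 -0.53 ± 0.21, adjusted p = 0.0355) lost its call without any one of the spermatogonia or round spermatid libraries (adjusted p = 0.0537 to 0.11). CCDC87, tied to the acrosome reaction, stood at 277, 280 and 282 CPM, at 175, 208 and 201 CPM, and at 110, 98.4 and 99.9 CPM, falling 1.44-fold and then 1.89-fold (log2 -0.52 ± 0.10 and -0.92 ± 0.10, adjusted p = 0.000902 and 1.04e-05). The spermatid markers were present in the spermatogonia libraries, as given above, and their part in the spermatogonial level of such genes was not tested.

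CCDC34 and CCDC33 were also described, outside the rule for named genes and after their values were seen. CCDC34, needed for the flagellum, stood at 30.0, 27.6 and 30.0 CPM, at 156, 134 and 162 CPM, and at 90.6, 19.8 and 85.9 CPM. Round spermatids 2 lay below the spermatogonia and the other round spermatids above them. It rose 5.15-fold in spermatocytes (log2 2.37 ± 0.44, adjusted p = 0.00068). Its fall in round spermatids (log2 -1.20 ± 0.42, adjusted p = 0.023) was lost without spermatocytes 2 or 4 (adjusted p = 0.0556 and 0.0551). Against spermatogonia its log2 difference of 1.16 ± 0.42 (adjusted p = 0.027) was lost without any one of spermatogonia 1, 2 and 3 and round spermatids 1 and 3 (adjusted p = 0.0614 to 0.11). CCDC33 had the inverse pattern, at 82.7, 85.0 and 83.6 CPM, then 30.5, 15.4 and 42.2 CPM, then 65.3, 71.1 and 60.7 CPM, with spermatocytes lowest. It fell 2.85-fold (log2 -1.51 ± 0.28, adjusted p = 0.000677) and was then 2.24-fold higher (log2 1.16 ± 0.28, adjusted p = 0.00284). The other members of the group, also named after their values were seen, were CCDC146, CCDC159, CCDC172 and CCDC188. Of these, CCDC146 and CCDC172 rose and CCDC159 and CCDC188 fell in spermatocytes (log2 1.41, 1.17, -0.76 and -0.98). The rise of CCDC172 was not called on TPM (adjusted p = 0.147 and 0.158). CCDC188 was higher again in round spermatids than in spermatocytes (log2 0.65, adjusted p = 0.037), a call lost without any library but spermatocytes 4 and round spermatids 1 (adjusted p = 0.0565 to 0.112).

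**Figure D3:**
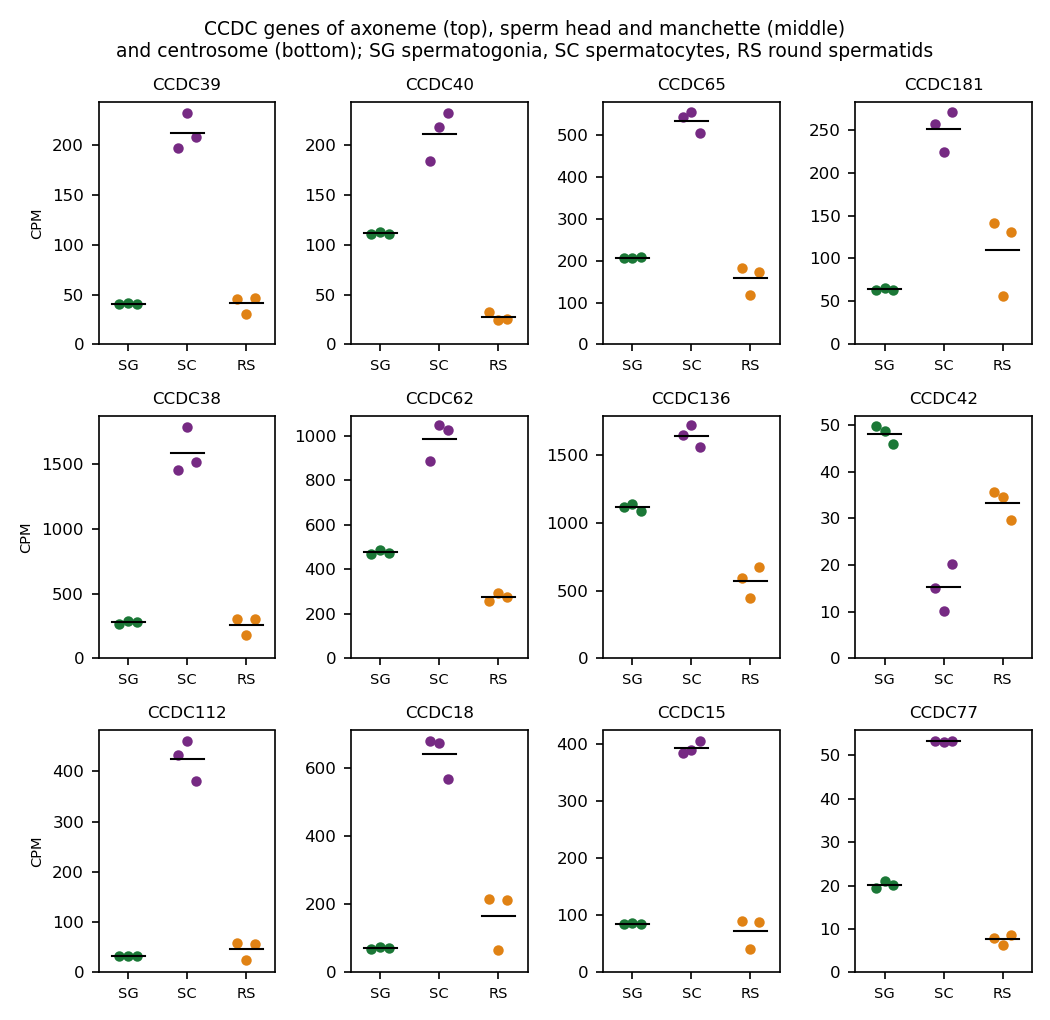
CPM of 12 CCDC genes in each library (points) with the stage mean (line), on linear axes from 0 that differ between panels, for spermatogonia (SG), spermatocytes (SC) and round spermatids (RS). The spermatocyte points lie highest in 11 panels, and CCDC42 is the exception, with 10.1 to 20.3 CPM in spermatocytes below both other stages.

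The largest rise of all members in spermatocytes was in the centrosome group. Centrosomes organise microtubules, and centriolar satellites are granules that move proteins to them. Of its 16 members, 8 rose and 6 fell in spermatocytes (50% and 37.5%, against 29.3% and 44.0% of all genes), and 4 rose and 10 fell in round spermatids against spermatocytes (25.0% and 62.5%, against 42.7% and 36.4%). CCDC112, a satellite protein (ENSSSCG00000029866, chromosome 2, 119443404 to 119480805), stood at 31.8, 33.5 and 32.5 CPM in spermatogonia, 431, 459 and 380 CPM in spermatocytes and 58.8, 24.1 and 57.2 CPM in round spermatids. Spermatocytes were far above all other libraries. It rose 12.98-fold (log2 3.70 ± 0.30, adjusted p = 2.95e-06) and was then 9.06-fold lower (log2 -3.18 ± 0.29, adjusted p = 2.38e-06). With 963 TPM on average it ranked 124 among all genes in spermatocytes. CCDC18, linked to the same granules, whose span overlaps TMED5, stood at 68.9, 73.5 and 73.1 CPM, at 680, 675 and 568 CPM, and at 217, 65.3 and 214 CPM. Round spermatids 2 was again apart, below every spermatogonia library. CCDC18 rose 8.92-fold (log2 3.16 ± 0.38, adjusted p = 3.42e-05) and fell 3.87-fold (log2 -1.95 ± 0.36, adjusted p = 0.000487). Its higher level in round spermatids than in spermatogonia (log2 1.20 ± 0.35, adjusted p = 0.0093) was not called on TPM (log2 0.39 and 0.40).

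CCDC15, CCDC77 and CCDC14 had the same form on a smaller scale. CCDC15, part of the inner scaffold of the centriole, stood at 84.1, 87.2 and 85.5 CPM, at 385, 390 and 406 CPM, and at 90.2, 40.7 and 89.2 CPM. It rose 4.59-fold (log2 2.20 ± 0.25, adjusted p = 2.62e-05) and fell 5.36-fold (log2 -2.42 ± 0.25, adjusted p = 6.99e-06). CCDC77, a centrosome protein, stood at 19.5, 21.1 and 20.1 CPM, at 53.3, 53.2 and 53.4 CPM, and at 7.95, 6.40 and 8.55 CPM. No stages overlapped, and round spermatids were lowest. It was 6.98-fold lower in round spermatids than in spermatocytes (log2 -2.80 ± 0.13, adjusted p = 2.06e-08) and 2.65-fold lower than in spermatogonia (log2 -1.41 ± 0.12, adjusted p = 2.32e-06). CCDC14, another satellite protein, stood at 9.17, 10.4 and 9.40 CPM, at 42.1, 55.9 and 49.3 CPM, and at 8.44, 5.46 and 7.64 CPM. It rose 5.09-fold (log2 2.35 ± 0.18, adjusted p = 2.15e-06) and fell 6.84-fold (log2 -2.77 ± 0.18, adjusted p = 1.91e-07). Its difference from spermatogonia in round spermatids (log2 -0.43 ± 0.17, adjusted p = 0.0426) was lost without any one of the spermatogonia libraries or round spermatids 2 or 3 (adjusted p = 0.0584 to 0.118).

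Other centrosome members did not rise. CCDC92, found at the centriole and cilium, stood at 293, 286 and 293 CPM in spermatogonia and at 280, 306 and 275 CPM in spermatocytes, which overlapped, and at 148, 118 and 135 CPM in round spermatids. The log2 difference of its first step was -0.02 ± 0.11 (adjusted p = 0.887). That difference took either sign among the alternatives: it was called lower without normalization factors (log2 -0.44, adjusted p = 0.00111) and on TPM (log2 -0.54), and higher when these 2 stages were fitted alone (log2 0.18, adjusted p = 0.0241). The fall to round spermatids was 2.15-fold (log2 -1.10 ± 0.11, adjusted p = 4.03e-06). CCDC61, a centriole protein named after its values were seen, fell at both steps, from 60.2, 60.5 and 59.0 CPM to 37.8, 39.6 and 29.7 CPM and then to 19.2, 24.8 and 18.5 CPM. It was 2.88-fold lower in round spermatids than in spermatogonia (log2 -1.52 ± 0.15, adjusted p = 4.7e-06). The second step alone was not called without normalization factors (log2 -0.29, adjusted p = 0.159).

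Of the 10 members of the nucleus, splicing and the ribosome, 3 rose and 3 fell in spermatocytes (29.3% and 44.0% of all genes), and 4 rose and 5 fell in round spermatids against spermatocytes (42.7% and 36.4%). CCDC174 and CCDC9 both bind the exon junction complex on spliced RNA, and they had opposite patterns. CCDC174 stood at 107, 107 and 107 CPM in spermatogonia, 306, 281 and 259 CPM in spermatocytes and 163, 92.3 and 153 CPM in round spermatids. Spermatocytes were highest, and round spermatids lay on both sides of spermatogonia. It rose 2.64-fold (log2 1.40 ± 0.19, adjusted p = 7.39e-05) and fell 2.07-fold (log2 -1.05 ± 0.19, adjusted p = 0.000369). CCDC9 stood at 16.5, 17.6 and 16.5 CPM, at 7.82, 6.98 and 8.21 CPM, and at 27.5, 36.7 and 29.1 CPM. Its stages did not overlap, with spermatocytes lowest and round spermatids highest. It fell 2.20-fold (log2 -1.14 ± 0.14, adjusted p = 3.72e-05) and was 4.05-fold higher in round spermatids than in spermatocytes (log2 2.02 ± 0.14, adjusted p = 2.95e-07). The rise of CCDC9 in round spermatids against spermatogonia (log2 0.88 ± 0.13, adjusted p = 0.000139) was not called on TPM (log2 0.24 and 0.25).

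CCDC86, a nucleolar protein, fell at both steps, from 75.0, 70.6 and 73.6 CPM in spermatogonia to 33.1, 40.1 and 30.8 CPM in spermatocytes and 16.4, 20.4 and 16.2 CPM in round spermatids. It was 4.14-fold lower in the last stage than in the first (log2 -2.05 ± 0.14, adjusted p = 3.56e-07). Its span on chromosome 2 overlaps PTGDR2. CCDC124, which binds ribosomes, stood at 62.1, 55.8 and 62.0 CPM, at 74.2, 68.8 and 55.9 CPM, and at 38.01, 28.9 and 40.9 CPM. The first stages overlapped (log2 0.14 ± 0.15, adjusted p = 0.408), and the sign of this difference turned on TPM, where it was called lower (log2 -0.38 and -0.39). CCDC124 was 1.84-fold lower in round spermatids than in spermatocytes (log2 -0.88 ± 0.15, adjusted p = 0.000323). CCDC97, a spliceosome protein, was called in no comparison, at 45.0 to 46.5 CPM in spermatogonia, 51.0 to 57.2 CPM in spermatocytes and 28.2 to 51.5 CPM in round spermatids. Left out singly, round spermatids 2 gave CCDC97 a call in spermatocytes against spermatogonia (log2 0.28, adjusted p = 0.0102) and round spermatids 1 one in round spermatids against spermatocytes (log2 -0.53, adjusted p = 0.0377).

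CCDC6 and CCDC59 of the same group were highest in the libraries labelled round spermatids and were named after their values were seen. CCDC6, known as a fusion partner of RET in thyroid cancer, stood at 10.1, 10.9 and 10.5 CPM, at 10.2, 10.2 and 11.8 CPM, and at 35.7, 29.4 and 34.0 CPM. The first stages overlapped and round spermatids lay above both, 3.08-fold over spermatocytes (log2 1.62 ± 0.12, adjusted p = 5.7e-07). CCDC59 rose stepwise, from 11.13, 11.8 and 11.5 CPM to 30.3, 25.5 and 29.9 CPM and to 47.1, 30.1 and 46.5 CPM. Its last step (log2 0.53 ± 0.17, adjusted p = 0.0143) was lost without spermatocytes 3, round spermatids 1 or round spermatids 3 (adjusted p = 0.0521, 0.0619 and 0.0625).

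In membrane traffic and the endoplasmic reticulum 6 of 8 members rose in spermatocytes and 2 fell (29.3% and 44.0% of all genes). In round spermatids 5 were higher and 1 lower than in spermatogonia (39.5% and 39.7% of all genes). CCDC186, which acts in making dense-core vesicles, stood at 65.1, 68.8 and 65.7 CPM in spermatogonia, 478, 425 and 536 CPM in spermatocytes and 343, 103 and 333 CPM in round spermatids. The stages were apart even with the low value of round spermatids 2. CCDC186 rose 7.21-fold (log2 2.85 ± 0.37, adjusted p = 6.21e-05) and in round spermatids remained 3.91-fold above spermatogonia (log2 1.97 ± 0.36, adjusted p = 0.000492). Its fall from spermatocytes to round spermatids (log2 -0.88 ± 0.35, adjusted p = 0.0379) was lost without spermatocytes 2 or 4 (adjusted p = 0.076 and 0.0952) and without normalization factors (adjusted p = 0.177). CCDC115, an assembly factor of the vacuolar proton pump whose span overlaps IMP4, stood at 66.4, 65.9 and 62.7 CPM, at 132, 145 and 126 CPM, and at 48.9, 52.2 and 50.2 CPM. It rose 2.07-fold (log2 1.05 ± 0.10, adjusted p = 6.19e-06) and fell 2.67-fold (log2 -1.42 ± 0.10, adjusted p = 2.64e-07), with no overlap between stages.

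CCDC91 and CCDC47 were at their lowest in spermatogonia. CCDC91, a trans-Golgi protein that binds the GGA adaptors, stood at 21.9, 19.3 and 20.2 CPM, at 42.6, 19.1 and 61.3 CPM, and at 93.9, 48.9 and 84.7 CPM. Spermatocytes 3 lay at the spermatogonial level. Only the rise from spermatogonia to round spermatids, 3.71-fold (log2 1.89 ± 0.37, adjusted p = 0.000805), kept its call with any library left out. The difference between spermatocytes and spermatogonia (log2 1.003 ± 0.36, adjusted p = 0.0288) was lost without spermatogonia 1, 2 or 3 or spermatocytes 2 or 4 (log2 0.60 to 1.05, adjusted p = 0.0571 to 0.143). That between round spermatids and spermatocytes (log2 0.89 ± 0.36, adjusted p = 0.043) was lost without any library but spermatocytes 4 and round spermatids 2 (log2 0.54 to 0.91, adjusted p = 0.0573 to 0.138). CCDC47, which helps insert proteins into the endoplasmic reticulum membrane, stood at 17.6, 18.2 and 17.1 CPM, at 35.2, 35.5 and 28.8 CPM, and at 28.9, 29.6 and 28.7 CPM. It rose 1.88-fold in spermatocytes (log2 0.91 ± 0.11, adjusted p = 4.49e-05), and the later stages did not pass the test against each other (log2 -0.19 ± 0.11, adjusted p = 0.139) unless spermatocytes 4 was left out (log2 -0.29, adjusted p = 0.0147). On TPM neither later stage of CCDC47 was called above spermatogonia (adjusted p = 0.144 and 0.142 in spermatocytes, 0.657 and 0.668 in round spermatids).

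CCDC22 and CCDC93 are subunits of one endosomal complex, the CCC complex, and they moved in opposite directions in spermatocytes; they were named after their values were seen. CCDC93 rose 1.85-fold, from 5.81, 5.32 and 6.01 CPM to 11.7, 10.3 and 9.66 CPM (log2 0.89 ± 0.14, adjusted p = 0.000189; not called on TPM, adjusted p = 0.126 and 0.124). It then stood at 10.8, 8.88 and 10.4 CPM in round spermatids. CCDC22 fell 2.98-fold, from 4.13, 3.78 and 3.23 CPM to 1.20, 1.24 and 1.30 CPM (log2 -1.57 ± 0.20, adjusted p = 4.97e-05), and stood at 2.88, 4.37 and 3.65 CPM in round spermatids, 2.91-fold above spermatocytes (log2 1.54 ± 0.20, adjusted p = 3.5e-05). The difference between the genes was not tested. CCDC22 lies on the X chromosome (43285232 to 43303865) and its span overlaps FOXP3.

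CCDC22 is 1 of 3 members on the X chromosome, which is transcribed little during meiosis in males. The others were also named for their place after their values were seen. CCDC120, a centriole protein 138 kb from CCDC22, stood at 9.06, 9.51 and 10.1 CPM in spermatogonia, at 2.29, 1.83 and 2.98 CPM in spermatocytes and at 9.80, 8.82 and 7.25 CPM in round spermatids. Spermatocytes were lowest and the other stages overlapped. It fell 4.03-fold (log2 -2.01 ± 0.20, adjusted p = 8.95e-06) and was then 3.63-fold higher (log2 1.86 ± 0.19, adjusted p = 6.9e-06). CCDC160 stood at 15.02, 15.3 and 14.4 CPM, at 12.3, 6.26 and 16.6 CPM, and at 23.7, 24.2 and 21.3 CPM. Its spermatocytes overlapped the spermatogonia (log2 -0.34 ± 0.27, adjusted p = 0.272), though without spermatocytes 4 the difference was called (log2 -0.68, adjusted p = 0.028). It was 1.96-fold higher in round spermatids than in spermatocytes (log2 0.97 ± 0.27, adjusted p = 0.00717). Its difference between round spermatids and spermatogonia (log2 0.63 ± 0.27, adjusted p = 0.0522) was called without spermatocytes 3 or 4 (adjusted p = 0.00156 and 0.0196).

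The 3 mitochondrial members differed among themselves. CCDC51, part of a mitochondrial potassium channel, stood at 2.53, 2.35 and 2.20 CPM, at 0.647, 0.982 and 0.861 CPM, and at 2.44, 2.60 and 2.47 CPM. It fell 2.84-fold in spermatocytes (log2 -1.51 ± 0.19, adjusted p = 5.74e-05) and was 3.01-fold higher in round spermatids (log2 1.59 ± 0.19, adjusted p = 2.32e-05), where it overlapped the spermatogonia. CCDC90B was set by single libraries, at 7.94, 7.42 and 8.48 CPM, at 36.3, 33.3 and 7.31 CPM, and at 4.20, 11.6 and 4.29 CPM. Spermatocytes 4 stood at the spermatogonial level, and round spermatids 2 above it. Its rise in spermatocytes (log2 1.69 ± 0.55, adjusted p = 0.0171) was lost without spermatogonia 2, spermatocytes 2 or spermatocytes 3 (adjusted p = 0.0512, 0.0719 and 0.055), and its fall (log2 -1.94 ± 0.55, adjusted p = 0.008) went to log2 -2.60 without round spermatids 2 (adjusted p = 0.00275). CCDC127, which overlaps the complex II gene SDHA, stood at 16.1, 14.7 and 14.96 CPM, at 12.8, 13.1 and 7.998 CPM, and at 13.2, 12.9 and 12.5 CPM. Its fall in spermatocytes (log2 -0.43 ± 0.18, adjusted p = 0.0455) held a call only without spermatocytes 2 or 3 and was lost without any other library (log2 -0.46 to -0.23, adjusted p = 0.0503 to 0.123). Without spermatocytes 4 its difference between round spermatids and spermatogonia was called (log2 -0.25, adjusted p = 0.0272).

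Of the 11 members in signalling, adhesion and the matrix, 3 rose and 4 fell in spermatocytes (27.3% and 36.4%, near the 29.3% and 44.0% of all genes), and 6 rose and 4 fell in round spermatids against spermatocytes (54.5% and 36.4%, against 42.7% and 36.4%). They hold both families of named paralogues, and the paralogues differed in level and pattern. Levels between genes are compared per length, in TPM. CCDC88A, or girdin, binds actin and is a substrate of Akt. It (ENSSSCG00000008406, chromosome 3, 85811043 to 85971162, overlapping MTIF2) averaged 283 ± 18.3 TPM in spermatogonia, 1276 ± 281 TPM in spermatocytes and 207 ± 23.5 TPM in round spermatids (SD, n = 3). CCDC88B, known from immune cells, averaged 22.1 ± 0.510, 5.497 ± 0.742 and 2.41 ± 1.25 TPM. CCDC88C, or daple, a regulator of Wnt signalling, averaged 11.8 ± 0.752, 2.67 ± 0.993 and 4.08 ± 1.60 TPM. CCDC88A was thus the most abundant of the 3 in every library, and it alone was highest in spermatocytes.

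In CPM, CCDC88A stood at 474, 528 and 479 in spermatogonia, at 2507, 3523 and 3532 in spermatocytes and at 689, 344 and 699 in round spermatids. Round spermatids 2 lay below the spermatogonia and the other 2 above. It rose 6.45-fold (log2 2.69 ± 0.26, adjusted p = 9.1e-06) and fell 5.52-fold (log2 -2.46 ± 0.26, adjusted p = 7.11e-06). CCDC88B stood at 74.2, 70.6 and 70.3 CPM, at 24.1, 30.4 and 22.7 CPM, and at 9.75, 13.7 and 10.001 CPM, with no overlap between stages. It was 6.43-fold lower in round spermatids than in spermatogonia, the largest fall of any member in that comparison (log2 -2.68 ± 0.17, adjusted p = 2.08e-07). CCDC88C stood at 22.2, 24.9 and 23.2 CPM, at 6.55, 5.87 and 10.2 CPM, and at 10.7, 12.97 and 12.1 CPM. Its stages were also apart, with spermatocytes lowest. It fell 3.10-fold (log2 -1.63 ± 0.20, adjusted p = 3.79e-05), and its later rise (log2 0.66 ± 0.20, adjusted p = 0.0101) was not called on TPM (log2 0.46 and 0.59).

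The CCDC85 genes, which encode adhesion-linked proteins related to each other, were low except for CCDC85B, and they were named after their values were seen. CCDC85A averaged 1.14 ± 0.0188, 1.20 ± 0.319 and 0.599 ± 0.263 TPM, CCDC85B 25.4 ± 0.426, 10.2 ± 2.34 and 23.4 ± 11.3 TPM, and CCDC85C 0.673 ± 0.0513, 0.599 ± 0.0579 and 0.670 ± 0.398 TPM. CCDC85B was above both paralogues in every library. It fell from 8.63, 8.25 and 8.31 CPM in spermatogonia to 4.29, 4.37 and 5.74 CPM in spermatocytes (log2 -0.81 ± 0.16, adjusted p = 0.00127). It then stood at 10.2, 13.3 and 10.02 CPM in round spermatids, above spermatocytes (log2 1.22 ± 0.17, adjusted p = 5.23e-05). Against spermatogonia that level (log2 0.41 ± 0.16, adjusted p = 0.0371) lost its call without any one of the spermatogonia libraries or round spermatids 2 (adjusted p = 0.0837 to 0.11), and its sign on TPM (log2 -0.20 and -0.21). CCDC85A, at 1.51, 1.47 and 1.52, then 1.72, 2.95 and 2.12, then 1.13, 1.31 and 0.997 CPM, fell in the last step (log2 -0.98 ± 0.23, adjusted p = 0.00233; not called without normalization factors, adjusted p = 0.0809). Its rise in spermatocytes (log2 0.59 ± 0.22, adjusted p = 0.0331) was lost without any spermatogonia library or spermatocytes 3 (adjusted p = 0.0818 to 0.127). CCDC85C was called in no comparison, but its difference between round spermatids and spermatogonia (log2 0.49 ± 0.21, adjusted p = 0.0565) was called without spermatocytes 4 or round spermatids 1 (adjusted p = 0.0451 and 0.0216). CCDC85A and CCDC88A are neighbours on chromosome 3, 161 kb apart, and stood at 1.20 and 1276 TPM in spermatocytes.

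**Figure D4:**
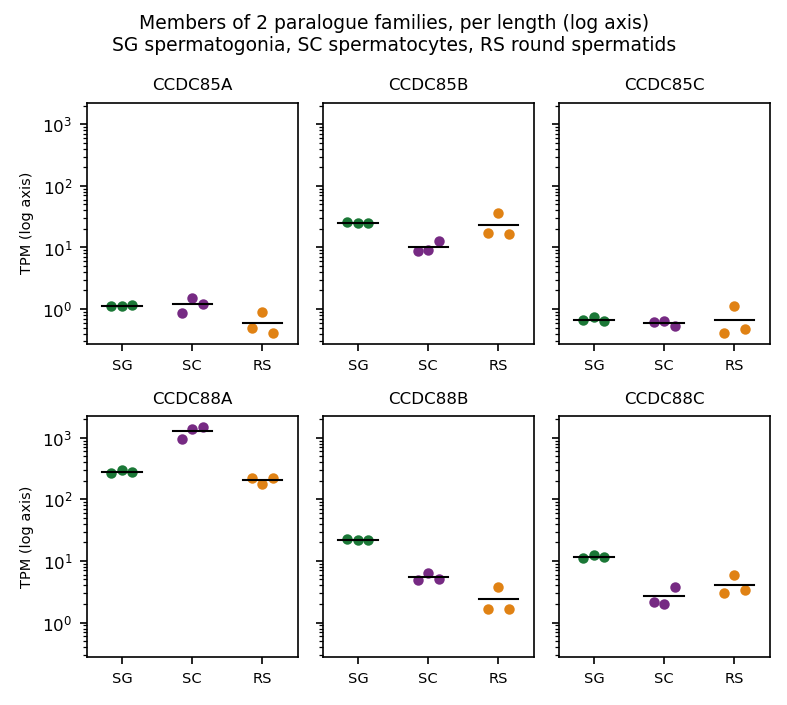
TPM (log axis, the same in all panels) of the CCDC85 and CCDC88 paralogues in each library (points) with the stage mean (line), for spermatogonia (SG), spermatocytes (SC) and round spermatids (RS). CCDC88A lies above both of its paralogues in every library and peaks in spermatocytes at 1276 TPM, and CCDC85B lies above CCDC85A and CCDC85C.

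CCDC50, a ubiquitin-binding protein of the same group, stood at 26.2, 25.8 and 24.7 CPM, at 56.0, 52.2 and 43.7 CPM, and at 19.4, 22.7 and 19.9 CPM. The stages did not overlap, with spermatocytes highest. It rose 1.98-fold (log2 0.98 ± 0.12, adjusted p = 4.71e-05; not called on TPM, adjusted p = 0.125 and 0.135) and fell 2.45-fold (log2 -1.29 ± 0.12, adjusted p = 3.41e-06). Its difference between round spermatids and spermatogonia (log2 -0.31 ± 0.12, adjusted p = 0.0383) was lost without any one of the spermatogonia libraries or round spermatids 1 or 3 (adjusted p = 0.0651 to 0.118).

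Among the genes of the matrix and of secreted proteins, CCDC80 and CCDC3 were higher in round spermatids than in both other stages. CCDC80, a secreted protein that binds the matrix (chromosome 13, 147203333 to 147244753), stood at 0.781, 0.609 and 0.776 CPM in spermatogonia, 0.490, 0.196 and 0.727 CPM in spermatocytes and 32.5, 20.1 and 29.5 CPM in round spermatids. The round spermatid libraries lay far above all others. It was 57.0-fold higher in round spermatids than in spermatocytes (log2 5.83 ± 0.36, adjusted p = 1.27e-07) and 37.8-fold higher than in spermatogonia (log2 5.24 ± 0.34, adjusted p = 2.58e-07). Between the first stages its difference (log2 -0.59 ± 0.37, adjusted p = 0.174) was called lower without spermatocytes 4 (log2 -1.04, adjusted p = 0.0403). CCDC3, another secreted protein, stood at 3.37, 3.75 and 3.82 CPM, at 6.84, 4.67 and 2.83 CPM, and at 60.4, 52.4 and 59.4 CPM. It was 12.0-fold higher in round spermatids than in spermatocytes (log2 3.59 ± 0.27, adjusted p = 5.16e-07) and 15.7-fold higher than in spermatogonia (log2 3.98 ± 0.27, adjusted p = 3.85e-07). Without spermatocytes 4, CCDC3 was also called higher in spermatocytes than in spermatogonia (log2 0.66, adjusted p = 0.0059), while on log2(TPM + 0.1) that difference was -0.21.

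The smooth muscle genes among the myoid markers were also highest in the libraries labelled round spermatids. ACTA2 stood at 3.45, 3.04 and 3.22 CPM in spermatogonia, 0.176, 0.109 and 1.05 CPM in spermatocytes and 1003, 1301 and 963 CPM in round spermatids. MYH11 stood at 5.57, 5.55 and 5.65 CPM, at 3.47, 2.68 and 10.1 CPM, and at 2345, 1617 and 2496 CPM. All 6 myoid markers were at 1 CPM or more in the libraries labelled round spermatids, and so were the endothelial markers and 4 of 5 leukocyte markers. Their part in the round spermatid level of CCDC80, CCDC3 and the genes that follow was not tested.

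Further genes with this pattern were named after their values were seen. CCDC8, a member of the 3M complex, stood at 0.426, 0.269 and 0.388 CPM, at 0.176, 0.218 and 0.210 CPM, and at 5.03, 6.01 and 5.52 CPM, 27.1-fold above spermatocytes (log2 4.76 ± 0.24, adjusted p = 3.32e-08). Its fall between the first stages (log2 -0.84 ± 0.27, adjusted p = 0.0171) was lost without spermatogonia 1 or 3 or spermatocytes 2 (adjusted p = 0.0658, 0.0516 and 0.0529). CCDC102A stood at 2.24, 2.63 and 2.46 CPM, at 0.706, 0.611 and 0.823 CPM, and at 8.24, 6.90 and 8.82 CPM, with no overlap between stages. It was 11.14-fold higher in round spermatids than in spermatocytes (log2 3.48 ± 0.19, adjusted p = 5.21e-08). The members CCDC141, CCDC28B and CCDC9B were near 0 in the first stages, so no fold is given. CCDC141 stood at 0.0708 to 0.0852 CPM in spermatogonia, up to 0.0437 CPM in spermatocytes and 2.83, 3.08 and 3.80 CPM in round spermatids. CCDC28B, a modifier of Bardet-Biedl syndrome, a disease of cilia, stood at 0.0142 to 0.0287 CPM, up to 0.0765 CPM, and 0.795, 0.711 and 0.743 CPM. CCDC9B stood at 0.172 to 0.213 CPM, up to 0.115 CPM, and 0.8799, 1.65 and 0.980 CPM. On log2(TPM + 1), which shrinks differences of low genes, the rises from spermatocytes to round spermatids of CCDC80, CCDC102A and CCDC8 were 3.34, 1.94 and 0.92, all still called. For each of CCDC141, CCDC28B and CCDC9B the round spermatid libraries lay above every other library.

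**Figure D5:**
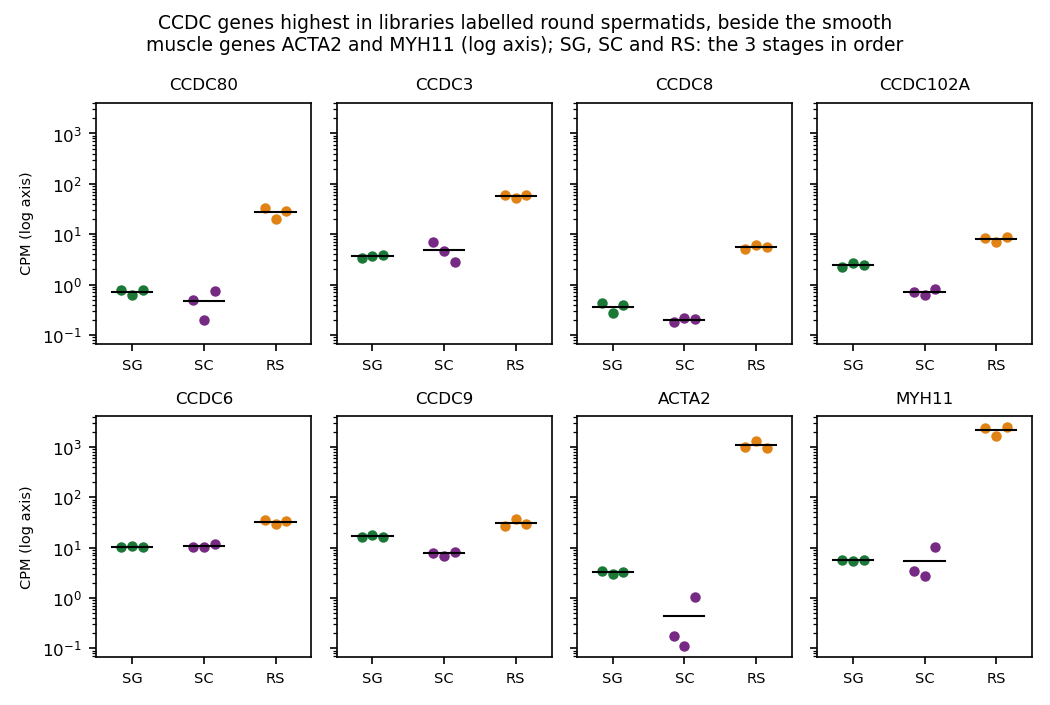
CPM (log axis, the same in all panels) of 6 CCDC genes called highest in the libraries labelled round spermatids, beside the smooth muscle genes ACTA2 and MYH11, in each library (points) with the stage mean (line). CCDC80 reaches 20.1 to 32.5 CPM in round spermatids from under 1 CPM elsewhere, in the same libraries in which ACTA2 reaches 963 to 1301 CPM.

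The remaining 36 tested members have no role assigned here, and 17 of them rose and 13 fell in spermatocytes (47.2% and 36.1%, against 29.3% and 44.0% of all genes). Against spermatocytes 10 rose and 16 fell in round spermatids (27.8% and 44.4%, against 42.7% and 36.4%). CCDC83 was the most abundant CCDC gene by TPM in every stage. It (ENSSSCG00000014912, chromosome 9, 19769244 to 19817515) averaged 725 ± 7.33 TPM in spermatogonia, 3368 ± 103 TPM in spermatocytes and 505 ± 93.5 TPM in round spermatids. Among all genes it ranked 26 by TPM in spermatocytes. In CPM it stood at 191, 189 and 186, at 1304, 1335 and 1150, and at 260, 113 and 266, with round spermatids 2 below the spermatogonia. CCDC83 rose 6.69-fold (log2 2.74 ± 0.28, adjusted p = 1.11e-05) and fell 5.93-fold (log2 -2.57 ± 0.27, adjusted p = 7.89e-06). Next to it on the chromosome, 407 kb away, CCDC81, named for its place, fell in spermatocytes (log2 -0.87 ± 0.19, adjusted p = 0.00215).

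CCDC142, CCDC154, CCDC24 and CCDC197 were at their highest mean in spermatogonia. CCDC142 stood at 301, 297 and 301 CPM, at 184, 230 and 197 CPM, and at 63.9, 84.1 and 62.7 CPM, and its stages did not overlap. It was 4.26-fold lower in round spermatids than in spermatogonia (log2 -2.09 ± 0.14, adjusted p = 3.28e-07), and its span overlaps MRPL53 and TTC31. CCDC154, whose span overlaps CLCN7, stood at 52.0, 52.5 and 50.1 CPM, at 51.3, 52.3 and 35.4 CPM, and at 10.03, 13.4 and 10.3 CPM. The first stages overlapped and the last lay below, by 4.60-fold from spermatogonia (log2 -2.20 ± 0.17, adjusted p = 1.04e-06). CCDC24 fell at once, from 30.5, 32.7 and 31.2 CPM to 8.86, 9.73 and 7.16 CPM (log2 -1.88 ± 0.21, adjusted p = 2.08e-05), and stood at 6.77, 11.7 and 7.38 CPM in round spermatids, which overlapped the spermatocytes. CCDC197 had the largest fall of any member in spermatocytes, 4.86-fold, from 30.5, 28.3 and 29.1 CPM to 5.72, 3.25 and 9.07 CPM (log2 -2.28 ± 0.29, adjusted p = 5.68e-05). In round spermatids it stood at 15.8, 12.5 and 14.0 CPM, between the other stages.

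CCDC70 and CCDC25 were higher in round spermatids than in spermatogonia. CCDC70 stood at 23.4, 23.1 and 22.2 CPM, at 11.8, 4.67 and 17.4 CPM, and at 69.9, 73.0 and 68.4 CPM. Round spermatids lay above all other libraries and spermatocytes below. It was 6.23-fold higher in round spermatids than in spermatocytes (log2 2.64 ± 0.36, adjusted p = 5.19e-05) and 3.07-fold higher than in spermatogonia (log2 1.62 ± 0.34, adjusted p = 0.00136). Its fall in spermatocytes (log2 -1.02 ± 0.34, adjusted p = 0.0208) was lost without spermatocytes 2 (adjusted p = 0.0522). CCDC25, known as a receptor for DNA outside the cell, stood at 12.9, 11.7 and 11.7 CPM, at 56.2, 54.5 and 49.6 CPM, and at 73.6, 29.5 and 69.3 CPM. It was lowest in spermatogonia and 4.74-fold higher in round spermatids (log2 2.25 ± 0.29, adjusted p = 3.38e-05). Round spermatids lay on both sides of the spermatocytes. The step from spermatocytes (log2 0.10 ± 0.27, adjusted p = 0.734) was called higher without round spermatids 2 (log2 0.42, adjusted p = 0.00273).

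The other 37 tested members are given by their ranges, grouped by the stage called above both others, so the directions follow from the grouping. In the largest such group 14 members were highest in spermatocytes, CCDC66, CCDC138 and CCDC150 among them, with log2 differences of 0.59 to 2.70 from spermatogonia and of -2.35 to -0.47 from spermatocytes to round spermatids. Highest in spermatogonia were 6 (CCDC57, CCDC71, CCDC106, CCDC137, CCDC167 and CCDC185), which lay -1.96 to -0.38 lower on the log2 scale in round spermatids. Highest in round spermatids were 4 (CCDC69, CCDC125, CCDC134 and CCDC190), by log2 1.51 to 3.48 over spermatogonia. In the 13 left no stage was called above both others, and their log2 differences between spermatocytes and spermatogonia ran from -1.94 to 1.86.

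Single libraries stood apart in the spread of these genes, which is given here in CPM. The median coefficient of variation of the members was 3.36% in spermatogonia, 13.7% in spermatocytes and 16.3% in round spermatids, beside 4.13%, 17.6% and 15.9% for all genes tested. Round spermatids 2 was more than 2-fold below both other round spermatid libraries in 16 members and above both in 1, CCDC90B. The 16 were CCDC112, CCDC122, CCDC146, CCDC15, CCDC152, CCDC175, CCDC18, CCDC181, CCDC186, CCDC191, CCDC25, CCDC34, CCDC73, CCDC82, CCDC83 and CCDC88A. They are not among the genes called highest in round spermatids, but a low library of that stage makes such a call less likely. Spermatocytes 3 was as far below in 7 members, CCDC185, CCDC196, CCDC54, CCDC70, CCDC80, CCDC91 and CCDC9B. No spermatogonia library was as far apart in any member. How many of all genes stood as far apart was not counted, so these numbers are not shown to be particular to the CCDC genes. In round spermatids 1, 2 and 3 the members' levels summed to 5966, 3948 and 5940 CPM. On TPM the sums were 4648, 4526 and 4465, where round spermatids 2 was not the lowest. Members that stood apart were not counted on TPM. Among the named genes, leaving out round spermatids 2 gave calls in round spermatids against spermatogonia that the 9 libraries did not: CCDC112 (log2 0.83, adjusted p = 2.27e-05), CCDC83 (log2 0.48, adjusted p = 0.000371), CCDC88A (log2 0.49, adjusted p = 0.00946), CCDC174 (log2 0.56, adjusted p = 0.000195) and CCDC146 (log2 0.75, adjusted p = 1.19e-05) were then higher in round spermatids. With all libraries their log2 differences were 0.52 ± 0.27, 0.18 ± 0.26, 0.23 ± 0.25, 0.35 ± 0.18 and 0.47 ± 0.24 (adjusted p = 0.1, 0.547, 0.415, 0.104 and 0.0895). On log2(TPM + 1) these genes had the opposite sign (log2 -0.20, -0.54, -0.46, -0.31 and -0.22 in the same order), and CCDC83, CCDC88A and CCDC174 were called lower.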

How the data were processed

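Per the labels' protocols, libraries of total RNA were made with a directional kit and read in pairs on an Illumina HiSeq. The submitters' processing notes name the assembly Sscrofa11.1 and the tool bcl2fastq. Not given in the sources used here are the aligner, the quantifier, the annotation and the use of strand. The authors deposited estimated counts and TPM per gene and library. Of 15 library columns 9 were used and the other 6 were not.

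Members and gene lists were chosen with earlier results of these data known. The genes named were, for each comparison, the 4 largest called changes in each direction with at least 10 CPM and no overlap, the 3 most abundant per stage by TPM, up to 4 of highest mean CPM in each role group, and members of well-known role. That gave 40 genes, and 19 more were added after their values were seen.

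Estimated counts were rounded, filtered with filterByExpr and scaled by TMM factors (0.774 to 1.26). All 9 libraries were fitted together with edgeR 4.0.16 (glmQLFit, glmQLFTest; R 4.3.3), with Benjamini-Hochberg adjustment over 16802 genes and a threshold of 0.05. The standard error was the log2 difference over the square root of F. CPM were scaled by the same factors. The scripts were tested on simulated data. Positions and overlaps came from a RefSeq table of Sscrofa11.1, by Ensembl gene identifier or, where that was missing, by a symbol found only once. The marker symbols DAZL, HSD3B1 and VWF were not matched. Alternatives, 19 in all, used DESeq2 1.42.0, limma 3.58.1 on log2 TPM with pseudocounts of 1 and 0.1, other scalings and filters, a replicate block, the spermatogonia libraries summed, and each library left out. Depth of 47963279 to 64639201 counts left counting error largest for genes under 1 CPM. Tables and plots used Python 3.11.15, pandas 2.3.3 and matplotlib 3.10.9.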

Additional observations from a re-analysis of the deposited data

How the results depend on the processing

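With limma on log2(TPM + 1) and on log2(TPM + 0.1), 31 members were called higher in spermatocytes than in spermatogonia in each (48 as reported). Of all genes, 15.5% and 15.7% were. In round spermatids against spermatogonia 20 members were higher and 52 lower in each (31 and 33 as reported). The shares of all genes were 26.8% and 50.05% with a pseudocount of 1, and 26.4% and 49.7% with 0.1. Highest in spermatogonia were 28 members (16 as reported), with the share of all genes not taken on TPM. On that scale the difference of round spermatids from spermatogonia turned to -0.61 and -0.62 for CCDC39, -0.54 and -0.54 for CCDC83, -0.46 and -0.46 for CCDC88A, -0.31 and -0.31 for CCDC174 and -0.20 and -0.21 for CCDC85B, and that of spermatocytes from spermatogonia to -0.38 and -0.39 for CCDC124. Without normalization factors, CCDC6 turned to -0.38 in spermatocytes against spermatogonia and CCDC93 to 0.38 in round spermatids against spermatocytes. CCDC92 turned to 0.18 in spermatocytes against spermatogonia with only those stages fitted. None of these 9 differences was called as reported except that of CCDC85B, and the cause was not tested. The median of all genes also moved. In round spermatids against spermatogonia it went from 0.00 to -0.39 and -0.58 on TPM. In spermatocytes against spermatogonia it went from -0.32 to -0.41 and -0.74 on TPM, to -0.74 without normalization factors and to -0.12 with only those stages fitted. In round spermatids against spermatocytes it went from 0.19 to 0.64 without normalization factors. The other counts stayed within 1.5 times the reported ones in all 19 alternatives. With the spermatogonia libraries summed into 1, the members' median log2 differences were 0.31, -0.43 and -0.10 in the 3 comparisons. Those of all genes were -0.39, 0.22 and -0.04. With 1 library left out, the counts ran from 45 to 50 higher and 31 to 36 lower in spermatocytes against spermatogonia, 28 to 35 and 47 to 51 in round spermatids against spermatocytes, and 27 to 40 and 26 to 36 in round spermatids against spermatogonia. In the same order, 26.1 to 30.9% of all genes were then higher and 40.4 to 45.2% lower, 40.9 to 43.6% and 34.8 to 37.4%, and 36.5 to 41.2% and 36.8 to 40.8%. Members highest in spermatogonia, spermatocytes and round spermatids then numbered 13 to 17, 33 to 37 and 14 to 18, with the shares of all genes not taken. Of the named genes' 177 differences, 140 were called, and 106 of the 177 kept the same side of the threshold in all alternatives. Called differences among the 106 also kept their direction. Uncalled ones could change sign, as CCDC24 did in round spermatids against spermatocytes (log2 -0.28 to 0.50). Of 3363 single values, 3057 were on the same side, 200 lost the call, 91 gained one and 15 turned. A change of sign counted as turned only where the reported or the new value was called. Deviations from the stage mean correlated at -0.12 to 0.04 between same-numbered libraries and at -0.15 to 0.14 between differently numbered ones. With 3 libraries a stage, this cannot tell whether the numbers pair the libraries. With a replicate block, 46 rose and 34 fell in spermatocytes against spermatogonia, 33 and 47 in round spermatids against spermatocytes, and 30 and 33 in round spermatids against spermatogonia. The shares of all genes were 27.6% and 43.3%, 42.1% and 35.4%, and 39.4% and 40.2%.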
